A study of Mus musculus with 9 samples.

Results

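Circles of extrachromosomal DNA were compared between mouse hearts shortly after birth and hearts shortly before it. The members were the 3 libraries labelled 3d (neonatal) and the 3 labelled E18 (embryonic), chosen by their labels, 6 of the 9 libraries of the series. The 9 libraries held 149584 distinct circles, of which 133095 were in 3d or E18. All animals were wild-type C57BL/6J mice, no treatment is given in the labels, each stage has biological replicates numbered in the labels, and whether a library came from a single heart or from pooled hearts is not stated there. The tissue label is heart and the cell type label is cardiocytes. Circle-seq reads DNA and not RNA, so that cell type was not checked against expressed markers, and hearts stands below for either.

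Extrachromosomal circular DNA (eccDNA) consists of closed circles copied or cut from chromosomal sequence. Most circles of healthy tissue are shorter than a gene, and their lengths tend to repeat at the spacing of nucleosomes, the protein spools around which DNA is wound. In rodents the heart changes within days of birth, as cardiomyocytes leave the cell cycle and turn from glycolysis to the oxidation of fatty acids. In Circle-seq, linear DNA is digested away and the circles that are left are amplified by phi29 polymerase before sequencing. A split read spans the junction at which a circle closes, and 1 such read was enough here to call a circle present.

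The libraries differed widely in depth, and the stages overlapped in it. The 3d libraries held 310110, 341384 and 665303 split reads in replicates 1 to 3, and the E18 libraries held 846374, 63710 and 186129. Among these libraries 3d replicate 1 stood apart, since 37.9% of its circles had a single split read, against 6.21% to 16.7% in the other 5. It also shared more of its circles with every other library, as given below. Results that rest on it are given without it as well. Split reads of amplified DNA are not independent molecules, so the intervals and zero-count limits below speak of counting error alone.

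Every neonatal library held more circles than E18 replicates 2 and 3, and 3d replicate 3 alone held more than E18 replicate 1. The 3d libraries held 32194, 26648 and 42963 circles, and the E18 libraries held 35273, 9039 and 10485. The highest E18 library thus lay above 3d replicates 1 and 2, and the stages overlapped. The log2 number averaged 15.02 ± 0.35 at 3d and 13.87 ± 1.08 at E18 (SD, n = 3 each), a difference of 1.15 that did not pass (exact two-sided permutation test, p = 0.3). The smallest p that 3 against 3 libraries allow is 0.1, so no single value per library could pass 0.05. Drawn down to 63710 split reads, the depth of E18 replicate 2, the 3d libraries would hold 16916, 19220 and 24382 circles and the E18 libraries 21833, 9039 and 8815. The stages still overlapped, and the log2 difference was 0.73 (exact permutation p = 0.3). Without E18 replicate 1 the difference in all circles was 1.77, and every 3d library then lay above both E18 libraries (exact permutation p = 0.1, the smallest that 3 against 2 allow).

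**Figure D1:**
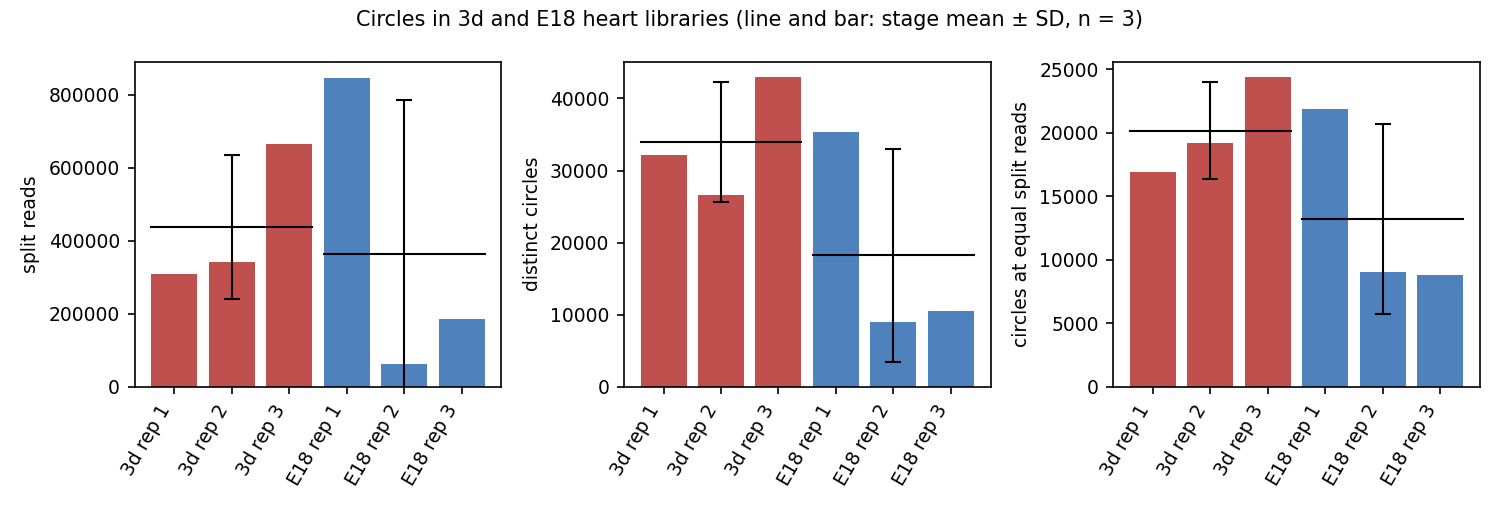
Split reads, distinct circles and circles at equal split reads (y axes, numbers) in each 3d and E18 library, with the stage mean ± SD over 3 libraries as a black line and bar. E18 replicate 1, with 35273 circles, stands among the 3d libraries in the second panel, and the other E18 libraries stand below all of them.

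Circles followed the same ladder of lengths on both sides of birth, and the height of the longer rungs overlapped between the stages. The first 4 peaks of the smoothed length distribution lay at 367, 561, 742 and 929 bp in the mean of the 3d libraries and at 365, 557, 739 and 929 bp in that of E18. Each library's first peak lay between 366 and 368 bp at 3d and between 364 and 365 bp at E18. The third peak held 1.24%, 0.837% and 1.64% of circles per 10 bp in the 3d libraries and 0.860%, 0.878% and 0.934% in the E18 libraries, so that 3d replicate 2 lay below all E18 libraries. Successive peaks were 181 to 194 bp apart in the 3d mean and 182 to 192 bp apart in the E18 mean. The median circle was 378, 368 and 405 bp long in the 3d libraries and 369, 366 and 369 bp in the E18 libraries. These medians averaged 384 ± 19.1 bp at 3d and 368 ± 1.73 bp at E18 (SD, n = 3 each), and the difference of 15.7 bp did not pass (exact permutation p = 0.3).

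Above 650 bp every 3d library held a larger share of its circles than every E18 library. The share was 23.1%, 17.4% and 34.0% in the 3d libraries and 15.9%, 16.3% and 16.1% in the E18 libraries. The SD over libraries was 8.43 percentage points at 3d and 0.161 at E18. The closest pair was 3d replicate 2, with a Wilson 95% interval of 16.9% to 17.9%, and E18 replicate 2, with 15.5% to 17.0%. The 3d mean was 8.75 percentage points higher, with the smallest p the design allows (exact permutation p = 0.1), and the cut at 650 bp was set after the shares were seen. Without 3d replicate 3 the difference was 4.17 percentage points, and without 3d replicate 1 it was 9.61 (exact permutation p = 0.1 for both). At equal split reads the shares were 26.1%, 17.7% and 37.7% at 3d and 16.7%, 16.3% and 15.5% at E18.

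The single size classes depended more on the setting. Circles of 250 to 450 bp, the size of DNA around a pair of nucleosomes, made up 48.5%, 46.1% and 45.3% of the 3d libraries and 53.0%, 48.5% and 51.7% of the E18 libraries. Their share was lower in each 3d library than in each E18 library, although 3d replicate 1 and E18 replicate 2 were almost equal. Circles of over 1000 to 2000 bp made up 6.56%, 5.06% and 11.4% at 3d and 4.34%, 4.91% and 3.65% at E18. Circles over 2000 bp made up 0.804%, 0.574% and 1.43% at 3d and 0.340%, 0.487% and 0.458% at E18. These 3 classes did not overlap between the stages (exact permutation p = 0.1 each, Benjamini-Hochberg adjusted 0.2 over the 6 classes). With 2 or more reads required, with 5 or more and at equal split reads, the class of 250 to 450 bp did overlap (exact permutation p = 0.2 each). Circles of over 650 to 1000 bp made up 15.7%, 11.8% and 21.1% at 3d and 11.2%, 10.9% and 11.96% at E18, and there 3d replicate 2 lay between E18 replicates 1 and 3 (adjusted p = 0.3). Under the same 3 settings that class did not overlap (exact permutation p = 0.1 each). Circles under 250 bp made up 17.5%, 27.4% and 8.01% at 3d, the widest spread of any class, and 21.4%, 25.3% and 21.8% at E18 (adjusted p = 0.6). Circles of over 450 to 650 bp made up 10.9%, 9.13% and 12.7% at 3d and between 9.74% and 10.4% in the E18 libraries, with a difference of 0.87 percentage points, or -0.04 without 3d replicate 3. Without that library the difference was 1.51 percentage points for over 1000 to 2000 bp, against 3.37 with it, and 0.26 for over 2000 bp, against 0.51 with it.

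**Figure D2:**
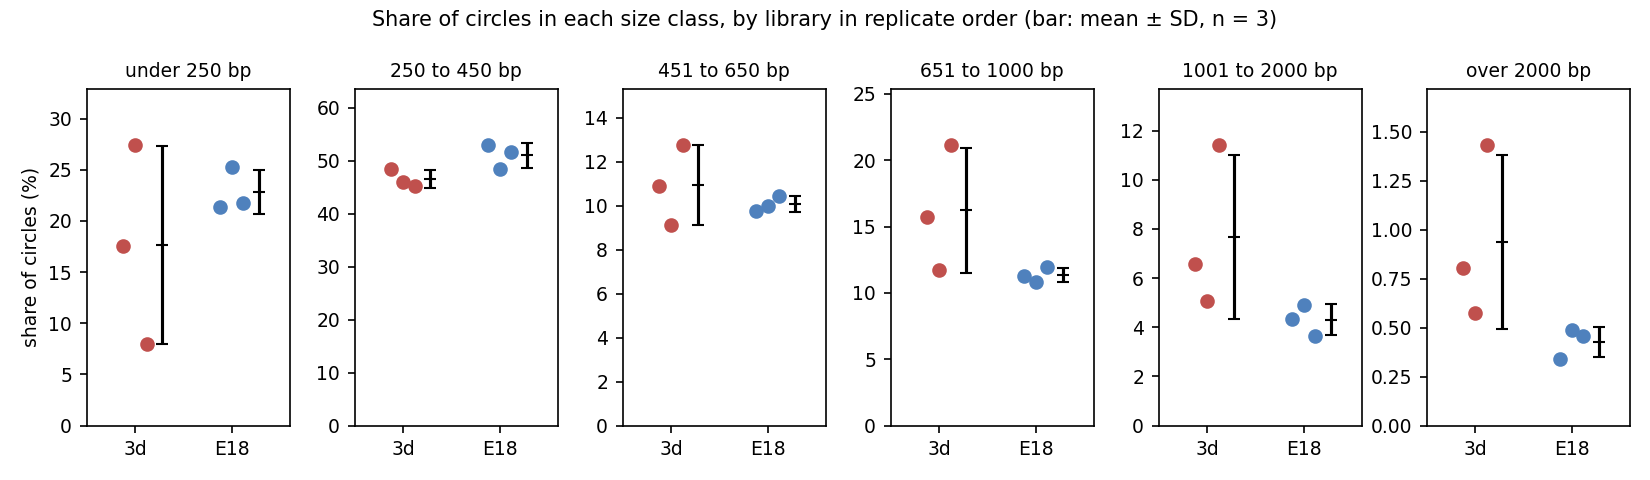
Share of circles (y axes, percent) in 6 size classes, with 1 point for each of the 3 libraries of 3d and of E18 in replicate order and black bars for the mean ± SD. The 3d points lie below the E18 points at 250 to 450 bp and above them at over 1000 to 2000 bp and over 2000 bp, where 3d replicate 3 is the highest.

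The ratio of the stages was lowest near 250 bp and mostly higher at greater lengths. In bins of 50 bp the mean share at 3d was 0.91 times that at E18 from 50 to 99 bp, 0.66 times from 250 to 299 bp, 0.96 times from 350 to 399 bp, 1.48 times from 750 to 799 bp and 1.77 times from 1050 to 1099 bp. The 3d libraries all lay above the E18 libraries in 13 of the 40 bins up to 2000 bp, and all 13 of these began at 750 bp or above. They all lay below in 2 bins, which began at 200 and 300 bp. Split reads per circle overlapped between the stages among the longer circles: 3d circles of over 1000 to 2000 bp averaged 16.1, 18.2 and 20.4 split reads, and E18 circles of that class 35.9, 7.30 and 25.01.

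**Figure D3:**
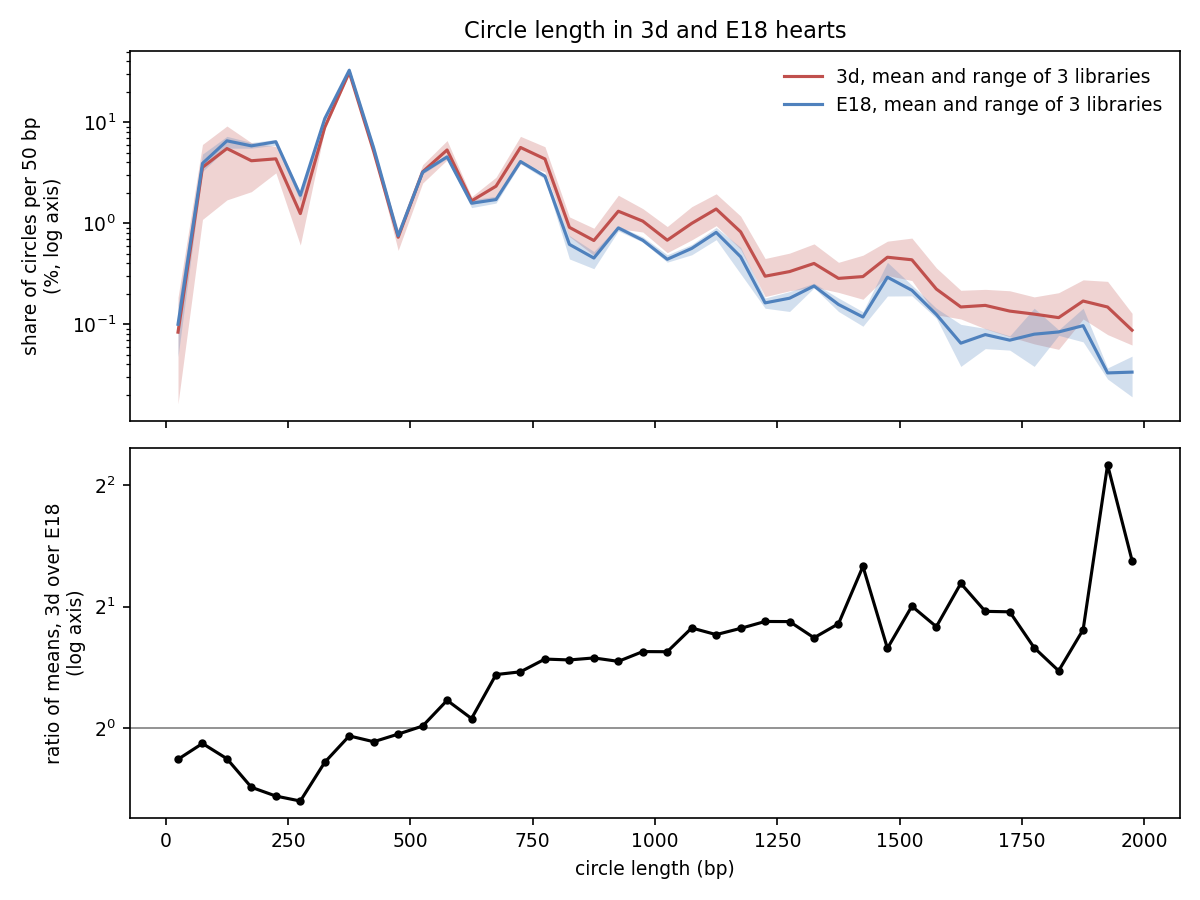
The upper panel shows the share of circles per 50 bp of length (percent, log axis), with the mean of 3 libraries as a line and their range shaded, for 3d and E18. The lower panel shows the ratio of the means, 3d over E18 (log axis), which lies below 1 under 500 bp, near 1.5 at 750 to 1000 bp and mostly above it beyond.

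The spread of reads over circles overlapped between the stages. A circle averaged 9.63, 12.8 and 15.5 split reads in the 3d libraries and 24.0, 7.05 and 17.8 in the E18 libraries. The most read 1% of circles took 16.3%, 9.50% and 8.97% of the split reads at 3d and 8.90%, 9.45% and 9.61% at E18, with 3d replicate 1 far above the rest. The difference was 2.28 percentage points (exact permutation p = 0.6) and -0.08 without 3d replicate 1.

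Some circles hold a whole microRNA (miRNA) hairpin, and these were found in each 3d library and in E18 replicate 1 alone among the E18 libraries. A miRNA is cut from such a hairpin and silences messenger RNAs that match its seed, bases 2 to 8 of the mature strand. This count was made after the data were seen. Of the 1005 hairpins with a RefSeq sequence on GRCm38.p6, 20 lay from end to end inside 17 circles of 3d and 1 inside a circle of E18. The mature miRNAs below are those of the hairpins best known from muscle, vessels and growth, with the seed in capitals, and they are shown since they name what these circles carried.
miR-133b-3p: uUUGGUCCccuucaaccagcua
miR-30a-5p: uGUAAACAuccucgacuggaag
miR-126a-3p: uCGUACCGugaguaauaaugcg
miR-25-3p: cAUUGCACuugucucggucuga
miR-93-5p: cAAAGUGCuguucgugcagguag
miR-106b-5p: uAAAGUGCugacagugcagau
miR-106a-5p: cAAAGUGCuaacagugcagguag
miR-148a-3p: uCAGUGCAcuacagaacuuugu
miR-149-5p: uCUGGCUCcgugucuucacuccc
The seed AAAGUGC was shared by miR-93-5p, miR-106b-5p and miR-106a-5p, members of the miR-17 family, which promotes proliferation in many tissues. The other miRNAs shown each have a seed of their own among the miRNAs of these circles.

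The muscle miRNA miR-133b had its hairpin in a 377 bp circle, chr1:20682681-20683057, with 0, 20 and 0 reads in the 3d libraries and 0 in each E18 library. The endothelial miRNA miR-126a has its hairpin in Egfl7, and a 1266 bp circle there, chr2:26590286-26591551, had 0, 16 and 0 reads at 3d and 0 in each E18 library. The hairpin of miR-30a, a miRNA abundant in heart, lay in a 389 bp circle, chr1:23272227-23272615, with 0, 0 and 8 reads at 3d and 0 in each E18 library. Each of these was thus seen in a single library. The cluster of Mir25, Mir93 and Mir106b in Mcm7, which encodes a subunit of the replicative helicase, gave circles in all 3 3d libraries. In 3d replicate 1 these circles had a single read each, and without that library they were in 3d replicates 2 and 3. A 341 bp circle around Mir25, chr5:138165085-138165425, had 1, 1 and 36 reads at 3d and 0 in each E18 library. A 1005 bp circle with all 3 hairpins, chr5:138164960-138165964, had 1, 6 and 0 reads at 3d and 0 in each E18 library. Mir148a lay in a 674 bp circle with 6, 0 and 0 reads at 3d, and Mir106a in a 753 bp circle with 0, 0 and 1 read, and neither was in an E18 library. The hairpin of the E18 circle was Mir149, in Gpc1, a heparan sulphate proteoglycan gene. That circle was 176 bp long, chr1:92850325-92850500, with 0 reads in each 3d library and 36, 0 and 0 in the E18 libraries.

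The 17 hairpin circles of 3d were 341 to 1537 bp long, 10 lay in a gene of the table, and 4 were in more than 1 3d library. Counted per library, hairpin circles numbered 6, 6 and 10 at 3d and 1, 0 and 0 at E18. Per 10000 circles this is 1.86, 2.25 and 2.33 at 3d and 0.284, 0 and 0 at E18, and the stages did not overlap. The difference of 2.05 per 10000 had the smallest p the design allows (exact permutation p = 0.1), and it lay between 1.96 and 2.20 whichever library was left out. The E18 libraries with a count of 0 were shallow, and a 0 there allows up to 3.32 per 10000 in E18 replicate 2 and 2.86 in replicate 3, above the level of each 3d library. Set side by side, 3d replicate 1 had 6 such circles of 32194 and E18 replicate 1 had 1 of 35273. Pooled over libraries the ratio was 11.8, with an exact 95% counting interval of 1.91 to 489. That interval counts circles, a shared one once for each library, and leaves out the spread between libraries. A longer circle covers more sequence, and per Mb of sequence in circles up to 100000 bp there were 0.378, 0.520 and 0.386 hairpin circles at 3d and 0.0654, 0 and 0 at E18. With the 1228 RefSeq miRNA genes in place of the hairpin sequences the counts per 10000 were 1.86, 2.25 and 2.33 at 3d and 0.567, 0 and 0.954 at E18 (exact permutation p = 0.1).

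**Figure D4:**
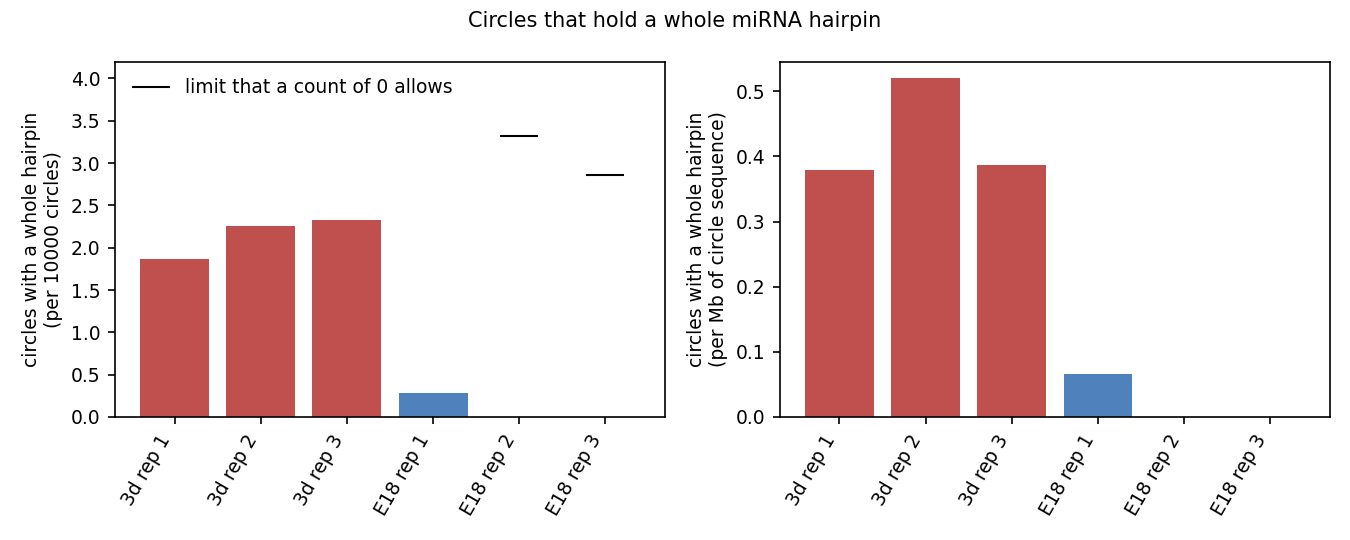
Circles that hold a whole miRNA hairpin, per 10000 circles (left) and per Mb of circle sequence (right), in each 3d and E18 library, with the limit that a count of 0 allows drawn as a black line for E18 replicates 2 and 3. The 3d bars lie between 1.86 and 2.33 per 10000, E18 replicate 1 lies at 0.284, and the limits of the other E18 libraries lie above the 3d bars.

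Circles that hold a whole promoter window, 250 bp before to 50 bp after a RefSeq gene start, were present at both stages. There were 182 such circles of 3d and 75 of E18, with 16 in both. Per 10000 circles they numbered 17.4, 13.9 and 24.9 at 3d and 15.9, 12.2 and 10.5 at E18, and E18 replicate 1 lay above 3d replicate 2 (exact permutation p = 0.2). The windows below are those in the most read circle of 3d and in the 3 most read of E18 (RefSeq, GRCm38.p6, printed along the gene), with the 50 bases from the start in capitals.
Acp5: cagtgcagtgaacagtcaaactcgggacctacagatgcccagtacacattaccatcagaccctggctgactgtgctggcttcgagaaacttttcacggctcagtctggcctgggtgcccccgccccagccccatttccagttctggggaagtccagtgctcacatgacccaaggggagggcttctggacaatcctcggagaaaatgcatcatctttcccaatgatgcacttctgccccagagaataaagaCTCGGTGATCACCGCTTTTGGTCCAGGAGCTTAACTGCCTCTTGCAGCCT
Emid1: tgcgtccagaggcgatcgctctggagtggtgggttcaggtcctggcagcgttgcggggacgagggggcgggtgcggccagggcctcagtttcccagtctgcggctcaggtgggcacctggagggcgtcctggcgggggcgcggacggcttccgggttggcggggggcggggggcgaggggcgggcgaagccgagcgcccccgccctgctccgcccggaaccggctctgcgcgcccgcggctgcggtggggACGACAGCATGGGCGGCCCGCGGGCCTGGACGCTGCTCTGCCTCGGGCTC
Tnfrsf12a: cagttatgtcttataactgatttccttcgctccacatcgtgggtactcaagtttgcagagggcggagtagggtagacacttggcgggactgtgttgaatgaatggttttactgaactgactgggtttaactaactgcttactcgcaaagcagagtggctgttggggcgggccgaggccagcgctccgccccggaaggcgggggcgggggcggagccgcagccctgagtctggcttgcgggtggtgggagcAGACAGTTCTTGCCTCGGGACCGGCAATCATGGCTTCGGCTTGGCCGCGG
Tcp11l2: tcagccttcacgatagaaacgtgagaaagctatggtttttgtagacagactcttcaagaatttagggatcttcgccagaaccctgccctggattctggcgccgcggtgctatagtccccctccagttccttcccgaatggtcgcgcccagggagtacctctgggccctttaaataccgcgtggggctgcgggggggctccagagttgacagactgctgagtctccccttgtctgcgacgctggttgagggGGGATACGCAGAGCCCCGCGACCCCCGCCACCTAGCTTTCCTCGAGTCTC
Acp5, the acid phosphatase of osteoclasts and macrophages, had its window (minus strand, chr9:22130549-22130848) in a 646 bp circle with 0, 0 and 90 reads at 3d and 1, 0 and 0 at E18. The window of Emid1, which encodes a secreted matrix protein (minus strand, chr11:5152181-5152480), lay in a 1155 bp circle with 0 reads in each 3d library and 179, 0 and 0 at E18. Tnfrsf12a encodes the receptor of the cytokine TWEAK, and its window (minus strand, chr17:23677400-23677699) lay in a 615 bp circle with 0 reads in each 3d library and 132, 0 and 0 at E18. That of Tcp11l2 (plus strand, chr10:84576697-84576996) lay in a 521 bp circle with 0, 5 and 0 reads at 3d and 122, 0 and 0 at E18. Each was thus carried almost wholly by a single library. The windows inside circles held a median GC of 48.3% at 3d (197 windows) and 49.3% at E18 (77), against 52.7% over all 32851 windows. The letters TATAAA, on either strand, occurred in 16.8% of the 3d windows and 16.9% of the E18 windows, against 13.6% of all windows.

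Few circles were found on both sides of birth. Of the 91322 circles of 3d and the 53262 of E18, 11489 were in both, which is 12.6% of the 3d circles and 21.6% of the E18 circles. Without 3d replicate 1 the circles in both numbered 4844, or 9.09% of those of E18. With 5 or more split reads required, 896 circles were in both, 1.47% of those of 3d and 2.18% of those of E18. Libraries of the same stage shared few circles too. The Jaccard index, the shared share of all circles of a pair, was 6.74%, 8.18% and 1.92% among the 3d pairs and 1.48%, 1.64% and 0.920% among the E18 pairs. Between 3d and E18 libraries it ran from 1.07% to 7.95%. The 5 pairs that include 3d replicate 1 held the 5 highest values, from 3.31% to 8.18%, and the others ran from 0.920% to 2.47%. Pairs share libraries, so these indices were not tested.

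Circles repeated in every library of a stage were rare, and most rested on a single library's reads. In all 3 3d libraries and no E18 library there were 181 circles. Of these, 32 had 2 or more split reads in each 3d library, 113 had a single read in 3d replicate 1, and in 153 a single library held over 50% of the reads. The most read was a 963 bp circle in Ppp3ca, which encodes the catalytic subunit of calcineurin, a phosphatase of cardiac calcium signalling, at chr3:136875630-136876592, with 102, 1 and 38 reads. A circle of 386 bp outside genes at chr14:107703026-107703411 had 1, 24 and 88 reads. In all 3 E18 libraries and no 3d library there were 11 circles, of which 0 had 2 or more reads in each. The most read, 356 bp long at chr10:96387654-96388009, had 317, 1 and 1 reads. In all 6 libraries there were 4 circles.

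The most read circle of each library had at most 1 read in any other library of either stage. A 622 bp circle at chr3:141052603-141053224 had 817 reads in 3d replicate 1 and 0 in the other 5 libraries. The most read circle of 3d replicate 2 (454 reads, 994 bp, chr11:40389839-40390832) and that of 3d replicate 3 (576 reads, 731 bp, on the X chromosome) were likewise in no other library of either stage. In E18 replicate 1 a 776 bp circle in Polh, which encodes the translesion DNA polymerase eta, had 764 reads, against 1, 1 and 0 reads in the 3d libraries. In E18 replicate 2 a 336 bp circle in Dhx40, a helicase gene, had 229 reads, against 0 in each 3d library. In E18 replicate 3 a 357 bp circle in Tnpo1, a nuclear import receptor gene, had 607 reads, against 1, 0 and 0 reads in the 3d libraries. Others among the 3 most read of a library were shared more: a circle in Tekt3, a gene of ciliary microtubules, had 480, 91 and 0 reads at 3d and 0 in each E18 library, and one in E330013P04Rik had 443, 0 and 1 at 3d and 118, 0 and 0 at E18.

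Single circles were then tested on their split reads with the quasi-likelihood test of edgeR over the 2893 circles in at least 3 of the 9 libraries. None passed after Benjamini-Hochberg adjustment (0 of 2893, 0%), and the smallest adjusted p was 0.355. At an unadjusted p under 0.05 there were 82 circles higher at 3d (2.83%) and 44 lower (1.52%). That split turned with the libraries used: it was 181 and 3 in the 6 libraries alone, 41 to 116 higher and 0 lower without any single 3d library, and 0 higher and 8 to 29 lower without any single E18 library. DESeq2 called 2 circles, each of which rested on the reads of a single library. The first, at chr2:52406379-52407290, had 61, 0 and 0 reads in the 3d libraries and 0 in each E18 library (DESeq2 adjusted p = 7.06e-05, edgeR adjusted p = 0.355). The second, at chr3:127756423-127756811, had 0 reads in each 3d library and 0, 0 and 53 in the E18 libraries (DESeq2 adjusted p = 4.11e-05, edgeR adjusted p = 0.355).

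The share of circles from genes differed little and did not pass the test. Circles overlapping an annotated protein-coding gene made up 42.9%, 44.0% and 43.8% of the 3d libraries and 42.5%, 41.2% and 43.0% of the E18 libraries. The difference of 1.35 percentage points did not pass (exact permutation p = 0.2), and 3d replicate 1 lay below E18 replicate 3. Circles over a gene start made up 0.317%, 0.229% and 0.331% at 3d and 0.286%, 0.177% and 0.219% at E18 (exact permutation p = 0.2). Of 21 chromosomes, none passed after adjustment, and 3 did not overlap between the stages. Chromosome 8 held 5.27%, 5.18% and 5.30% of circles at 3d and 4.94%, 5.08% and 4.74% at E18. Chromosome 4 held 5.96%, 5.89% and 6.00% at 3d and 6.28%, 6.26% and 6.09% at E18, and chromosome 15 held 3.80%, 3.98% and 3.90% at 3d and 4.18%, 4.05% and 4.30% at E18 (exact permutation p = 0.1, adjusted 0.7 for each of the 3).

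Genes were compared by the number of circles that overlap them. Circles of 3d touched 11891 genes and those of E18 9192, with 7316 in common, and 776 genes had a circle in every library of both stages. The 2174 genes that reached 10 circles across all 9 libraries, out of 13767 with a circle in 3d or E18, were tested with edgeR's quasi-likelihood test. None passed (0 of 2174, 0%, smallest Benjamini-Hochberg adjusted p = 0.757), and DESeq2 called 0 too. At an unadjusted p under 0.05 there were 73 genes higher at 3d (3.36%) and 12 lower (0.552%). That split depends on the scaling: with library totals alone it was 53 and 35, and the median log2 change of all genes tested was 0.06, against 0.26 with TMM. In the accounts of genes that follow, a relative log2 change is the change less that median of 0.26, whereas the p-values test the change itself against 0. Rates did not overlap between the stages in 271 genes, 169 of them higher at 3d (7.77%) and 102 lower (4.69%). Counts per gene were small, with a median of 9 circles over the 3 3d libraries and 5 over the 3 E18 libraries.

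The 8 genes with the smallest p on the side of 3d included a cardiac transcription factor gene. Cald1 (chr6:34598501-34775473), which encodes the actin-binding protein caldesmon, had 6, 4 and 7 circles in the 3d libraries and 0 in each E18 library (edgeR unadjusted p = 0.000386, adjusted 0.757). Against a limit of 3 circles over the 3 E18 libraries this is at least 3.05-fold higher at 3d per circle. Rbfox2, a splicing regulator of heart and muscle genes, had 6, 3 and 5 circles at 3d and 0 in each E18 library, at least 2.51-fold higher. Gata4 (chr14:63198923-63271692), a transcription factor that drives heart development, had 3, 7 and 1 circles at 3d and 0 in each E18 library, at least 1.97-fold higher. These genes reached the minimum of 10 circles through 3d alone, the stage in which they were high, so their zeros and bounds are descriptions. Pcnx, with 4, 4 and 4 circles, and Stam, an adaptor of endosomal sorting, with 3, 6 and 2, were likewise at 0 in each E18 library, for bounds of 2.15-fold and 1.97-fold, and they too reached the minimum through 3d.

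A further 3 genes on that side had a few circles at E18. Map2k5 (chr9:63163770-63377902) encodes the kinase MEK5, which acts upstream of ERK5, and had 7, 9 and 11 circles at 3d and 2, 1 and 0 at E18, a rate ratio of 4.84 with a 95% counting interval of 1.49 to 24.95. Mgmt, whose product removes alkyl groups from guanine, had 5, 5 and 13 circles at 3d and 1, 0 and 1 at E18, a ratio of 6.19 (1.53 to 54.2). Ascc3, a helicase of the alkylation damage response, had 2, 3 and 12 circles at 3d and 0, 0 and 1 at E18, a ratio of 9.15 (1.43 to 382). The stages did not overlap in Map2k5 and Mgmt and overlapped in Ascc3. These 3 genes too reached the minimum of 10 circles only with their 3d circles. They were picked by p, so their ratios, intervals and overlap are descriptions. None of the 8 genes on this side passed after adjustment (edgeR, adjusted p = 0.757 for each).

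On the other side the p-values were larger. Hmga2 (chr10:120361276-120476469), an architectural chromatin protein of embryonic cells, had 2, 1 and 3 circles at 3d and 5, 3 and 4 at E18, with no overlap per 10000 circles and a log2 change of -1.63 (SE 0.75, edgeR unadjusted p = 0.031), or -1.89 relative to the median. Pcdh7, a protocadherin, had 2, 4 and 4 circles at 3d and 10, 2 and 4 at E18, a relative change of -1.59 (SE 0.63). Its rates did not overlap either. Adamts2, the protease that trims procollagen, had 1, 3 and 2 circles at 3d and 9, 1 and 3 at E18. Rabgap1l, a regulator of Rab GTPases, had 1, 9 and 6 at 3d and 16, 2 and 5 at E18, and both genes overlapped between the stages. Grm4, a glutamate receptor of neurons, had 1, 2 and 1 circles at 3d and 6, 4 and 0 at E18, and Slc35f3, a solute carrier, had 2, 1 and 0 at 3d and 8, 2 and 0 at E18. Over the longer RefSeq model of Slc35f3, 258 kb against 96.9 kb in the table, there were 12 circles at 3d and 14 at E18. Ankhd1, with 0, 1 and 1 circles at 3d and 3, 1 and 4 at E18, and Nyap2, a neuronal adaptor of PI3 kinase, with 1, 0 and 2 at 3d and 6, 2 and 1 at E18, did not overlap. Hmga2, Adamts2, Slc35f3, Ankhd1 and Nyap2 reached the minimum of 10 circles only with their E18 circles, the stage in which they were high. All 8 genes were picked by p, so their changes and overlap are descriptions. The 8 genes had adjusted p-values of 0.956 to 0.989 (edgeR).

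**Figure D5:**
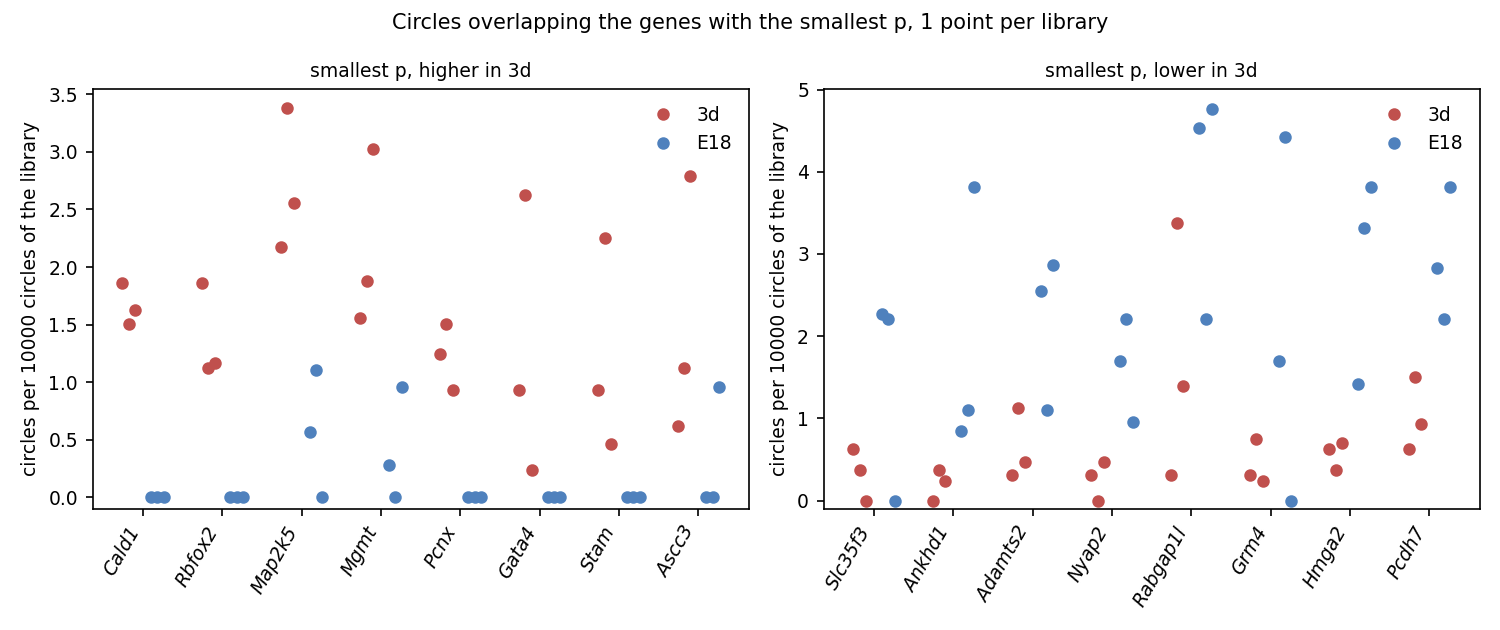
Circles overlapping the 8 genes with the smallest p in each direction, per 10000 circles of the library (y axes), with 1 point for each 3d and each E18 library. At left the E18 points lie at or near 0 (all at 0 in Cald1, Rbfox2, Pcnx, Gata4 and Stam), and at right most E18 points lie above the 3d points.

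The genes with the most circles were very long, and most of their rates overlapped between the stages. Ptprd, a receptor phosphatase of neurons, spans 2271 kb and had 32, 18 and 42 circles at 3d and 43, 8 and 11 at E18. Per 10000 circles it averaged 8.82 ± 1.79 at 3d and 10.5 ± 1.67 at E18 (SD, n = 3 each). Macrod2, a fragile-site gene of 1998 kb, averaged 8.79 ± 1.57 at 3d and 6.99 ± 3.19 at E18. Csmd1, a gene of 1643 kb for a large membrane protein, averaged 8.06 ± 2.12 at 3d and 6.71 ± 0.087 at E18. Relative log2 changes of these 3 genes lay between -0.34 and 0.24 with SEs of 0.36 to 0.39. Cntnap2, Pcdh15 and Nrxn3, adhesion genes of neurons, had relative changes of -0.23, -0.03 and 0.09, and Dlg2, a synaptic scaffold, 0.41. Of the 10 genes with the most circles, Gm20388 alone had an unadjusted p under 0.05 (log2 change 0.71, SE 0.34, edgeR unadjusted p = 0.035, adjusted 0.989). Its relative change was 0.45, against the SE of 0.34. Gm20388, Fgfr2 and Arfip1 stand in the table as models of 4435, 2961 and 1391 kb. RefSeq gives Fgfr2, a fibroblast growth factor receptor, 104 kb, with 10 circles at 3d and 2 at E18, against 156 and 61 in the model of the table. It gives Arfip1 86.7 kb, with 5 circles at 3d and 1 at E18, against 75 and 43, so that most circles counted to these names lay outside the RefSeq gene.

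Gene groups of the changing heart were described by counts, since so few members had enough circles to test. Members that passed the filter did so through their circles at any stage. Many of those named below passed it only with their circles at 3d. Among them were Pdlim5, Fhod3, Kcnq1, Acacb, Ppargc1b, Egln1, Epas1, Cdk6, Rb1, Wwtr1, Lama4, Col5a1 and Ptprc, so their counts are descriptions. Of 32 sarcomere and Z-disc genes, 23 had a circle in 3d or E18, 4 were tested and 0 had an unadjusted p under 0.05. Circles in the group numbered 12.4, 9.76 and 10.7 per 10000 at 3d and 7.65, 12.2 and 6.68 at E18, and the stages overlapped. The tested members with the smallest p were Pdlim5, a Z-disc adaptor, with 10 circles at 3d and 1 at E18, and Fhod3, a formin that builds thin filaments, with 24 and 7.

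Genes of calcium handling and ion channels held 23.9, 23.3 and 24.7 circles per 10000 at 3d and 19.85, 22.1 and 16.2 at E18, which did not overlap. That separation rests on single members. Of the 77 circles in 3d replicate 1, Itpr2 gave 9 and Kcnq1 gave 7. With either gene left out, 3d replicate 1 lay below E18 replicate 2. Of 25 listed, 14 were tested, 11 of them above the median change of all genes, and the median was 0.22 above it. Itpr2, an inositol trisphosphate receptor that releases stored calcium, was the 1 member with an unadjusted p under 0.05, where 3.36% of all genes tested were higher at 3d, with 9, 5 and 11 circles at 3d and 5, 0 and 0 at E18 (edgeR unadjusted p = 0.024, adjusted 0.989). Kcnq1, the potassium channel of the slow repolarising current, had 22 circles at 3d and 5 at E18. Cardiac transcription factor genes held 9.63, 10.1 and 11.4 circles per 10000 at 3d and 8.51, 8.85 and 6.68 at E18, without overlap. That separation rests on Gata4, which gave 7 of the 27 circles of the group in 3d replicate 2. With Gata4 left out, 3d replicate 2 lay below E18 replicates 1 and 2. Of 19 listed, 6 were tested. Gata4, described above, had an unadjusted p under 0.05 but was tested only through its 3d circles, and no other member was under 0.05. Prdm16, a regulator of compact myocardium, had 20 circles at 3d and 5 at E18. All other groups described here overlapped between the stages.

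Metabolic and cell cycle genes mostly had too few circles to test. Of 26 genes of fatty acid oxidation 4 were tested, and the group held 5.59, 9.76 and 9.78 circles per 10000 at 3d and 6.52, 9.96 and 10.5 at E18. Acacb, whose product limits fatty acid import into mitochondria, had 8 circles at 3d and 1 at E18, and Ppargc1b, a coactivator of mitochondrial genes, had 7 and 1. Of 25 genes of glycolysis and the hypoxia response 3 were tested, with Egln1, an oxygen sensor, at 8 and 2 circles and Epas1, a hypoxia-inducible factor, at 7 and 3. Of 30 cell cycle genes 2 were tested, Cdk6, a kinase of the G1 phase, with 10 circles at 3d and 8 at E18, and Rb1, the retinoblastoma gene, with 7 and 5. In each of these 3 groups 0 members had an unadjusted p under 0.05, and rates overlapped between the stages.

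Genes of DNA repair gave 1 member on each side at an unadjusted p under 0.05. Over all genes tested the shares were 3.36% higher and 0.552% lower. Of 26 listed, 7 were tested, and the group held 11.8, 12.4 and 8.15 circles per 10000 at 3d and 8.79, 13.3 and 13.4 at E18. Wrn, the helicase gene of Werner syndrome, had 4, 3 and 5 circles at 3d and 1, 0 and 0 at E18, a ratio of 6.46 with a counting interval of 0.96 to 276 (edgeR unadjusted p = 0.027, adjusted 0.989). It reached the minimum of 10 circles only with its 3d circles, so this ratio is a description. Msh3, a mismatch repair gene, had 0, 3 and 2 circles at 3d and 4, 3 and 3 at E18 (edgeR unadjusted p = 0.047, adjusted 0.989). Msh3 reached that minimum only with its E18 circles, so its counts are a description too. Growth signalling genes (20 listed, 6 tested) held 27.3, 23.6 and 27.5 circles per 10000 at 3d and 23.8, 23.2 and 24.8 at E18, and the long table model of Fgfr2 gave 156 circles at 3d and 61 at E18. Wwtr1, the Hippo effector TAZ, had 9 circles at 3d and 1 at E18.

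Genes that mark other cells of the heart overlapped between the stages. Fibroblast and matrix genes (25 listed, 7 tested) held 14.3, 13.9 and 13.7 circles per 10000 at 3d and 10.8, 6.64 and 15.3 at E18, with Lama4, a basement membrane laminin, at 8 and 1 circles and Col5a1, a fibrillar collagen, at 13 and 3. Endothelial genes (21 listed, 5 tested) held 5.28, 6.75 and 6.28 at 3d and 4.54, 8.85 and 5.72 at E18, with Tek, an angiopoietin receptor, at 5 and 6 circles and Erg, an endothelial transcription factor, at 11 and 4. Blood and immune genes (20 listed, 7 tested) held 7.77, 10.1 and 6.75 at 3d and 6.52, 9.96 and 13.4 at E18, with Ptprc, the leukocyte marker CD45, at 8 and 1 circles and Cx3cr1, a chemokine receptor of macrophages, at 6 and 7. The model of Cx3cr1 in the table spans 167 kb, and RefSeq gives it 19.6 kb, with 1 circle at 3d and 2 at E18. All 26 long neuronal and fragile-site genes were tested. They held 143, 132 and 152 circles per 10000 at 3d and 147, 126 and 141 at E18, a ratio of means of 1.03, and 12 of the 26 lay above the median change of all genes. Wwox, a fragile-site gene, had 56 circles at 3d and 19 at E18, and Auts2, a regulator of neuronal genes, 65 and 24. In each of these 5 groups, growth signalling included, 0 members had an unadjusted p under 0.05.

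Most stretches of the genome gave circles at close rates at both stages. In the 2546 windows of 1 Mb with at least 10 circles over the 9 libraries, the log2 change stayed within 2-fold in 98.4%. None passed (0 of 2546, 0%, edgeR, smallest Benjamini-Hochberg adjusted p = 0.481), and DESeq2 called 0. At an unadjusted p under 0.05, 37 windows were higher at 3d (1.45%) and 60 lower (2.36%), and with library totals alone 50 were higher and 46 lower. Rates did not overlap between the stages in 141 windows that were higher at 3d (5.54%) and 130 that were lower (5.11%).

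The rates of all 10 windows named by p did not overlap between the stages. They were picked by p in these same libraries, so this is a description. Over all windows, rates did not overlap in 5.54% that were higher at 3d and 5.11% that were lower. The window chr11:90000001-91000000, with Hlf, a transcription factor gene, and Stxbp4, had 14, 10 and 25 circles at 3d and 5, 1 and 3 at E18, a log2 change of 1.47 (SE 0.48, edgeR adjusted p = 0.961). The window chr8:121000001-122000000 holds Jph3, a junctophilin gene, and had 13, 15 and 27 circles at 3d and 9, 1 and 3 at E18. The window chr5:138000001-139000000 holds Mcm7 and with it the Mir25 cluster, and had 16, 13 and 16 circles at 3d and 6, 3 and 1 at E18. The windows chr9:78000001-79000000, with 20, 13 and 28 circles at 3d and 8, 1 and 4 at E18, and chr3:83000001-84000000, with 14, 13 and 20 at 3d and 10, 0 and 1 at E18, were the others on this side.

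Lower at 3d by the same order, chr3:140000001-141000000, with no RefSeq coding gene, had 10, 11 and 3 circles at 3d and 23, 7 and 5 at E18, a log2 change of -1.46 (SE 0.39, edgeR adjusted p = 0.481). Without 3d replicate 2 the smallest adjusted p of any window was 0.0544 (edgeR). The window with Trps1, a zinc finger repressor gene, chr15:50000001-51000000, had 11, 4 and 12 at 3d and 22, 7 and 4 at E18. The windows chr1:100000001-101000000, with 6, 2 and 14 circles at 3d and 19, 3 and 7 at E18, and chr5:100000001-101000000, with 13, 10 and 9 at 3d and 24, 6 and 6 at E18, were on this side too.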

How the data were processed

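Circle-seq was made from 9 heart libraries. Per the labels' protocols, linear DNA was digested, circles were purified with alkaline treatment and a column, copied with phi29 polymerase, sheared and sequenced. The deposited table gives raw split-read counts per circle and library, with circles found by Circle-Map, per the file headers. The submitters' processing notes name BWA 0.7.12, cutadapt 1.9.1, bedtools 2.27.1, SAMtools 1.9 and the builds GRCm38 and mm10. No source used here states a filter. The circle lengths and gene overlaps in the deposited table are in bp. The normalized log2 values that the authors deposited beside the counts were not used.

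Lines that repeat a circle for several genes were joined, so 154938 lines gave 149584 circles. Starts are printed 1-based. Values per library were compared with exact two-sided permutation tests over the 3 libraries of each stage. Circles (split reads, in at least 3 of the 9 libraries), genes and 1 Mb windows (number of circles, at least 10 over the 9 libraries) were tested with edgeR 4.0.16 in R 4.3.3 (quasi-likelihood test, TMM, spread shared over the 9 libraries), with DESeq2 1.42.0 as an alternative, and Benjamini-Hochberg adjustment over all features at 0.05. Peaks of length were read after smoothing with a Gaussian of 12 bp SD. Shares have Wilson 95% intervals, ratios exact ones, and a count of 0 a limit of 3 counts. Gene names and models are those of the table, and miRNA hairpins, promoter windows and second gene models are those of RefSeq on GRCm38.p6, for circles up to 100000 bp where a whole feature had to lie inside. The procedure was tested on simulated data.

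Genes named are the 8 with the smallest p in each direction, the 10 with the most circles and, of each list, the 2 tested members with the smallest p. Windows named are the 5 with the smallest p in each direction, of which 1 is not reported here. Circles named are those found in all libraries of a stage and none of the other, or with the most reads. The members and lists were chosen with earlier results of these data known. The joined class over 650 bp and the hairpin and promoter counts were added after the data were seen. Nothing beyond the labels says how libraries of a stage were collected, so p-values measure the spread between these libraries. Replicate numbers were not taken to pair the stages.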

Additional observations from a re-analysis of the deposited data

How the results depend on the processing

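No gene or 1 Mb window passed under any alternative run (other normalization, filters, read minimums, DESeq2, the 6 libraries alone, each library left out), and no circle passed except the 2 that DESeq2 called. Values per library could not pass 0.05 in any setting, so only their direction is compared: 4 of 204 alternative values reversed, and 17 of 588 for named genes. Those that turned are as follows, with ranges over single libraries left out and, for genes, log2 changes that are not relative to the median. The share of over 450 to 650 bp ranged from -0.040 to 1.77 percentage points. The log2 of split reads per circle ranged from -0.73 to 0.15 and was 0.014 with 5 or more reads required. The share of reads in the top 1% ranged from -0.083 to 3.59 percentage points. Jaccard sharing of 3d with E18 did not turn but changed in size, and averaged 0.258% with 5 or more reads required, against 2.69%. The log2 change of Ptprd (-0.08) was 0.12 with at least 5 circles and ranged from -0.27 to 0.33. That of Cntnap2 (0.03) was -0.19 with library totals, -0.039 with DESeq2, -0.016 in the 6 libraries alone, -0.028 with 2 or more reads and -0.12 with at least 20 circles, and ranged from -0.17 to 0.16. That of Arfip1 (0.15) was -0.13 with library totals and -0.054 with at least 20 circles, and ranged from -0.064 to 0.47. That of Pcdh15 (0.23) was -0.033 with circles of 250 bp or more and ranged from -0.058 to 0.45. Epas1 (0.46) ranged from -0.68 to 3.80 and Rb1 (-0.21) from -0.53 to 0.32. The cause was not tested. Weighted by split reads, the share over 650 bp was 35.6%, 22.0% and 42.1% at 3d and 22.1%, 16.5% and 19.1% at E18, and the stages overlapped (exact permutation p = 0.2).

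The labels number the replicates of each stage alike. Deviations of same-numbered libraries had correlations of -0.04, 0.02 and -0.03 over genes, where counts were too small to decide on a pairing. With the replicate block, the log2 difference in the number of circles stayed at 1.15 (exact p = 0.5, of at least 0.25), Rb1 came to 0.10, and 0 circles, genes and windows passed. Genes at an unadjusted p under 0.05 then numbered 44, against 85, and circles 0, against 126. Counts of circles at that p also moved with the filter, to 53, all higher at 3d, with 2 or more reads and 184 in the 6 libraries alone, and of genes to 287 with at least 5 circles and 32 with at least 20. Depth limits these results: the median gene tested held 9 circles at 3d and 5 at E18, E18 replicates 2 and 3 held 9039 and 10485 circles, and 3 libraries a stage cannot give an exact p under 0.1.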

Other observations

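Among circles up to 100000 bp, whole genes of the table lay inside 4 circles of 3d or E18. Smim6, a small membrane protein gene, lay with its promoter window in a 2745 bp circle, chr11:115911626-115914370, with 1, 3 and 19 reads at 3d and 0 in each E18 library. The other 3 held olfactory receptor genes, whose coding sequence is short. Olfr703 lay in a 2411 bp circle with 0, 0 and 17 reads at 3d and 0 in each E18 library, and Olfr1354 in one of 37390 bp with 0, 20 and 0 reads at 3d and 0 in each E18 library. Olfr738 lay in a 1418 bp circle with 0 reads in each 3d library and 126, 0 and 0 at E18.

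A few listed circles spanned far more sequence than a gene. Those over 100000 bp numbered 21, 14 and 27 at 3d and 22, 4 and 4 at E18, which is 0.0652%, 0.0525% and 0.0628% of circles at 3d and 0.0624%, 0.0443% and 0.0381% at E18. The longest in each library spanned 9.27, 9.22 and 9.70 Mb at 3d and 9.95, 8.72 and 9.03 Mb at E18.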
